A study of Mus musculus with 8 samples.

Results

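The checkpoint and CD28 family receptors are 10 genes of T cell surface proteins: Pdcd1, Ctla4, Lag3, Tigit, Havcr2, Cd28, Icos, Btla, Cd200 and Cd226. Their open chromatin regions were taken as the regions that the deposited count table assigns to one of these symbols, once per distinct position. That gave 78 of 46624 distinct regions, and all 78 passed the filter on low counts. Of these, 50 were under 1000 bp wide, 32 overlapped the body of their own gene, and the farthest lay 179.3 kb from it, at Icos. The table lists 10 of the 78 for further genes too, among them all 6 regions of Lag3. The assay was ATAC-seq, which reads out where a transposase can reach the DNA. Cells were sorted from C57BL/6 mice that carry a red fluorescent protein (RFP) reporter at Foxp3, the gene of the regulatory T cell (Treg) factor. The 4 groups were RFP-positive Tregs from visceral adipose tissue (VAT) of males, RFP-positive Tregs from VAT of females, RFP-negative CD4+ T cells from VAT of males, and RFP-positive Tregs from spleens of males. Each group had 2 libraries, and each library pooled the cells of 3 mice. Strain and reporter were common to all groups, and ages are not given in the sources used here. Whether the pools of a group came from separate mice is not stated, so the tests measure the spread between these libraries, which may be technical.

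CD28 and ICOS are costimulatory receptors: bound by ligands on antigen-presenting cells, they strengthen the signal of the T cell receptor. CTLA-4 competes with CD28 for its ligands and is carried at high levels by Tregs. PD-1 (encoded by Pdcd1), LAG-3, TIGIT, TIM-3 (encoded by Havcr2) and BTLA are inhibitory receptors, several of which build up on chronically stimulated T cells. CD226 is an activating receptor that shares ligands with TIGIT. CD200 is a surface protein that acts on an inhibitory receptor of myeloid cells. Tregs of visceral fat are a tissue population with an antigen-experienced phenotype.

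Depth was 15189119 and 9303488 counts in male VAT Tregs, 9949076 and 8350024 counts in female VAT Tregs, 5722254 and 7228052 counts in VAT CD4 cells, and 8198093 and 15798875 counts in spleen Tregs. Regions under 1000 bp took 5.55% of the counts of male VAT Treg library 1 and 3.60 to 4.37% of those of the other 7 libraries. Levels are given below as CPM, the counts of a region scaled to a common library total. Foxp3 followed the sort: its X-linked region between 7582208 and 7585993 had 18.8 and 14.0 CPM in male VAT Tregs and 1.54 and 2.16 CPM in VAT CD4 cells. That region held 27.1 and 32.9 CPM in female VAT Tregs, above the male values, and 13.6 and 13.6 CPM in spleen Tregs. Of 45 regions of 5 Treg markers, edgeR called 16 higher and 0 lower in male VAT Tregs than in VAT CD4 cells. Against spleen Tregs 7 were higher and 1 lower in male VAT Tregs, and 5 higher and 0 lower in female VAT Tregs. Between the sexes 1 was higher and 3 lower in male VAT Tregs. The summed level of the 45 regions was 561 and 373 CPM in male VAT Tregs and 487 and 484 CPM in female VAT Tregs. It was 315 and 382 CPM in VAT CD4 cells and 384 and 406 CPM in spleen Tregs. Of 16 regions of 5 CD4 T cell markers, 3 were called lower in male VAT Tregs than in VAT CD4 cells and 1 lower than in spleen Tregs. None was called higher in any comparison. Their summed level was 170 and 121 CPM in male VAT Tregs and 184 and 184 CPM in female VAT Tregs. VAT CD4 cells had 145 and 199 CPM and spleen Tregs 174 and 184 CPM. Markers of 5 other classes were checked: CD8 and NK cells (4 of 6 had regions), B cells (5 of 6), myeloid cells (4 of 7), adipocytes (4 of 5), and stromal and endothelial cells (5 of 6). Their summed levels, in that order, were 99.6 to 113 CPM, 91.1 to 126 CPM, 96.6 to 136 CPM, 76.6 to 81.7 CPM and 129 to 130 CPM in male VAT Tregs and 106 to 117 CPM, 127 to 132 CPM, 145 to 146 CPM, 99 to 101 CPM and 129 to 138 CPM in female VAT Tregs. In VAT CD4 cells they were 125 to 131 CPM, 111 to 116 CPM, 112 to 142 CPM, 98.8 to 99 CPM and 138 to 144 CPM, and in spleen Tregs 106 to 107 CPM, 128 to 134 CPM, 144 to 153 CPM, 97.3 to 110 CPM and 132 to 145 CPM. In male VAT Tregs edgeR called 2 of 9 myeloid and 2 of 11 adipocyte marker regions lower than in spleen Tregs, and 1 of the 9 myeloid ones lower than in female VAT Tregs. Lower than in VAT CD4 cells were 2 of 9 CD8 and NK cell, 1 of 8 B cell and 1 of 9 myeloid marker regions, and 1 of the 8 B cell ones was higher. The part of such cells in the results was not tested. In bulk libraries, a region open in fewer cells and one less open in each cell cannot be told apart.

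Promoter windows of 300 bases (RefSeq, GRCm38.p6, from 250 bases before to 50 after the gene start, 5′ to 3′ on the gene's strand) were found for 6 of the 10 genes. Each of these windows, of Pdcd1, Ctla4, Tigit, Havcr2, Btla and Cd200, overlaps a region of its own gene. The start is that of the promoter table, which for Tigit, Btla and Cd200 is not the outer end of the gene body given below. Of the 4 shown, those of Havcr2, Tigit and Ctla4 overlap regions that were called in a comparison, and that of Pdcd1 one that was not. Capitals mark matches, on either strand, to short motifs of AP-1, Runx, NFAT, GATA and TCF factors, whose letters are spelled out after the sequences.
Havcr2, chr11:46454681-46454980, plus strand: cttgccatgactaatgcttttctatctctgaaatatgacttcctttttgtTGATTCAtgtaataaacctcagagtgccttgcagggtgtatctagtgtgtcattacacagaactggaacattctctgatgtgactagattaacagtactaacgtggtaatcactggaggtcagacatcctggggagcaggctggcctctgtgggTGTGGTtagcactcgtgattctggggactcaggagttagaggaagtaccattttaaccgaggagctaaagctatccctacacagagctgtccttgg
Tigit, chr16:43664135-43664434, minus strand: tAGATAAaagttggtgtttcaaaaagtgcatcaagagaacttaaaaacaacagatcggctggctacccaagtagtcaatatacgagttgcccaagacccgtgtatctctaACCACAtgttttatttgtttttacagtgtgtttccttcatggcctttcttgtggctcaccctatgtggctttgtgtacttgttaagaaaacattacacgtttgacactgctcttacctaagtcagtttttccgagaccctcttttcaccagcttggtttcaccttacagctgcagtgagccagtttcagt
Ctla4, chr1:60908775-60909074, plus strand: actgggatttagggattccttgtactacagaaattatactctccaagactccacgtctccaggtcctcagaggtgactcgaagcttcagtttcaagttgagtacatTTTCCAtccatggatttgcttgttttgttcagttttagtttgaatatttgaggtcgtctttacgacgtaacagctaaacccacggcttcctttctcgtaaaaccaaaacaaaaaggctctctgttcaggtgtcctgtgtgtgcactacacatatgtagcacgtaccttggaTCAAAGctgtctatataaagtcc
Pdcd1, chr1:94052504-94052803, minus strand: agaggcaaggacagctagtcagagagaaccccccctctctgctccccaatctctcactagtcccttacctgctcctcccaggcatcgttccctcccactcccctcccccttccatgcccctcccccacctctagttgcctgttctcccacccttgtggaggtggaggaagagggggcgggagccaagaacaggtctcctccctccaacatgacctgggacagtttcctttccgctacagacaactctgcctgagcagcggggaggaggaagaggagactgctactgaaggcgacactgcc
The Havcr2 window shares 231 bases with a short region, which starts after the AP-1 match at base 51 and holds the Runx match at base 205. The Tigit window has a GATA match at base 2 and a Runx match at base 111. The Ctla4 window has an NFAT match at base 107 and a TCF match at base 278. None of the 5 motifs was found in the Pdcd1 window, whose GC content is 60.7%, against 41.3 to 45.3% in the other 3 windows shown. Matches shown do not overlap each other. Among 32851 promoter windows of this length, 7.81% held the letters of the AP-1 motif, TGANTCA. The Runx motif, searched as TGTGGT, was in 16.8% of them, and the NFAT motif, searched as TGGAAA, in 21.4%. The GATA factor motif, searched as AGATAA, was in 11.2%, and the TCF motif, searched as CTTTGA, in 16.0%. A match is a string of letters and not a bound site.

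The receptor regions that the main fit called between fat and spleen Tregs were higher in fat. Lower calls in male VAT Tregs came with scaling on short regions alone, where there were 2, or without male VAT Treg library 1. In male VAT Tregs 12 of the 78 were called higher and 0 lower than in spleen Tregs: 5 at Pdcd1, 3 at Icos, and 1 each at Tigit, Havcr2, Cd28 and Cd226. A call is an edgeR quasi-likelihood adjusted p under 0.05 over all 45709 regions tested. The 12 are 15.4% of the receptor regions, where 4.64% of all regions were higher and 2.09% lower. Among regions under 1000 bp, 8 of 50 receptor regions were higher, against 10.2% of all such regions. Female VAT Tregs had 2 receptor regions higher than the same spleen libraries, at Pdcd1 and Icos, and 0 lower, where 1.18% of all regions were higher and 0.197% lower. Of the short regions 1 of 50 was higher, against 2.07% of all short ones. Sex and tissue cannot be told apart in that comparison.

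Male VAT Tregs had 6 receptor regions higher than female VAT Tregs, 3 at Pdcd1 and 1 each at Havcr2, Cd28 and Cd226, and 0 lower. Over all regions 2.04% were higher and 1.21% lower, and of short regions 5 of 50 receptor regions and 4.68% of all were higher. The regions tested include 991 on X and 27 on Y, whereas the receptor genes are all autosomal. Shares over the 44691 autosomal regions alone are not given, here or for female VAT against male spleen. Against VAT CD4 cells, male VAT Tregs differed in both directions, with 13 receptor regions higher and 10 lower. Higher were 5 at Ctla4, 3 at Pdcd1, 2 at Tigit and 1 each at Havcr2, Cd28 and Cd226. Lower were 3 at Cd28, 2 at Cd226 and 1 each at Pdcd1, Ctla4, Lag3, Icos and Btla. Over all regions 5.18% were higher and 2.51% lower, and of short regions 10 of 50 receptor regions and 10.3% of all were higher. The DESeq2 Wald test gave fewer calls: 4 higher for male and 0 for female VAT against spleen, 1 higher between the sexes, and 8 higher and 4 lower against VAT CD4 cells. Over all 45709 regions it also gave fewer, in the same order 1113, 247, 354 and 1252 higher, and 608 lower against VAT CD4 cells. For the counts of 0 lower it also gave 0, beside 249, 34 and 152 over all regions. There edgeR had 6 lower (male VAT against spleen), 3 (female VAT against spleen) and 3 (between the sexes) with an unadjusted p below 0.05. Over all 45709 regions, 4000, 1746 and 3052 were lower and 4516, 2475 and 3078 higher at that p. Against VAT CD4 cells 4718 of all regions were higher and 3408 lower at that p. Median log2 fold changes over the 78 regions were -0.03 against spleen, 0.04 between the sexes and 0.20 against VAT CD4 cells, beside -0.01, 0.01 and -0.02 over all regions.

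Single libraries and the scaling moved these counts. Without male VAT Treg library 1 the regions higher and lower were 2 and 1 against spleen, 0 and 1 between the sexes, and 5 and 6 against VAT CD4 cells. Against spleen there were 5 or 3 higher without spleen library 1 or 2, and 8 or 7 without female library 1 or 2, which enter the shared estimate of spread. Between the sexes there were 0 or 1 higher without female library 1 or 2. Against VAT CD4 cells there were 6 higher and 6 lower without VAT CD4 library 1, 11 and 3 without VAT CD4 library 2, and 16 and 4 without male VAT Treg library 2. The 2 female calls were 0 without any 1 female or spleen library. Scaling on regions under 1000 bp alone moved the median of all regions by -0.17 against spleen and -0.23 against VAT CD4 cells. The counts were then 3 higher and 2 lower against spleen, 1 and 0 between the sexes, 8 and 11 against VAT CD4 cells, and 0 for females against spleen. Library size alone moved the median against VAT CD4 cells by 0.13 and gave 14 higher and 5 lower there. Of the 43 calls, 6 held in all 8 fits without 1 library: 4 at Pdcd1, 1 at Cd28 and 1 at Btla. These 6 also passed by DESeq2 and under each other scaling and filter tried. Of the 43, 17 held by DESeq2 and 22 with scaling on short regions.

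**Figure D1:**
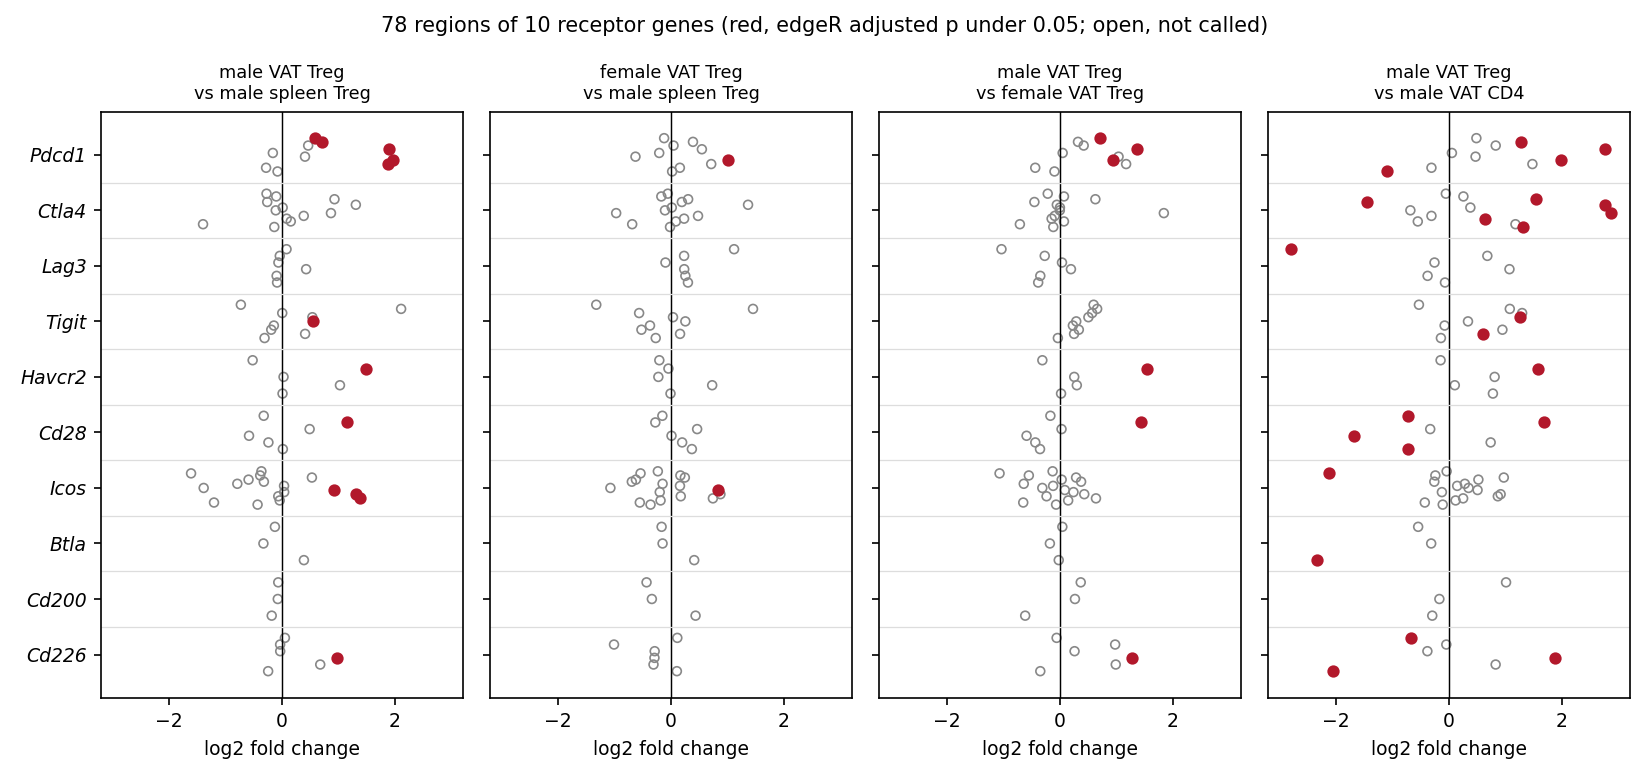
Log2 fold change (x axis) of each of the 78 regions in the 4 comparisons, by gene; red points were called by edgeR and open points were not. Called points lie right of 0 against spleen and between the sexes, and against VAT CD4 cells 13 lie right and 10 left of 0.

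Pdcd1, on chromosome 1 from 94038305 to 94052553, had 10 regions and the most calls of the 10 genes. Its leading region, from 94074659 to 94075232, has its centre 22.4 kb upstream of the gene start. It held 28 and 17.8 CPM in male VAT Tregs and 12.3 and 11.7 CPM in female VAT Tregs. VAT CD4 cells had 3.85 and 7.5 CPM and spleen Tregs 5.94 and 5.97 CPM. Both male libraries stood above the other 6, and both female libraries above all VAT CD4 and spleen libraries. An enhancer upstream of this gene is known from exhausted mouse CD8 T cells; whether it is the same stretch was not tested. The log2 fold change of male VAT Tregs was 1.95 ± 0.23 (edgeR adjusted p = 4.49e-13) against spleen, and 1.98 ± 0.25 (edgeR adjusted p = 2.93e-11) against VAT CD4 cells (± is an approximate SE, n = 2 per group throughout). Both calls held without any 1 library, and without VAT CD4 library 2 the second log2 fold change was 2.58. Where a call did not pass without a library, by the DESeq2 Wald test, or in edgeR with another scaling or filter, the adjusted p of that fit follows in parentheses. Log2 fold changes are given as well where the fold change itself, before the log2, moved by over 1.5 times without 1 library. Smaller moves are not listed. Against female VAT Tregs it was 0.95 ± 0.22 (edgeR adjusted p = 0.00217), which did not pass without male VAT Treg library 1 (0.291) or female library 1 or 2 (0.0839 or 0.107), or by DESeq2 (0.0911) or with short-region scaling (0.0806). Female VAT Tregs exceeded spleen Tregs by 1.01 ± 0.24 (edgeR adjusted p = 0.00588), which did not pass without female library 1 or 2 (0.163 or 0.0652) or spleen library 1 or 2 (0.0866 or 0.134), or by DESeq2 (0.138) or with short-region scaling (0.137).

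A second short Pdcd1 region lies inside the gene, from 94047995 to 94048434. There the values were 10.9 and 7.04 CPM in male VAT Tregs and 3.89 and 3.17 CPM in female VAT Tregs. In VAT CD4 cells the values were 1.54 and 1.15 CPM, and in spleen Tregs 2.3 and 2.51 CPM. No groups overlapped: male VAT Tregs were highest, then female VAT Tregs, spleen Tregs and VAT CD4 cells. Male VAT Tregs were higher than spleen Tregs by a log2 fold change of 1.90 ± 0.34 (edgeR adjusted p = 4.09e-06) and than VAT CD4 cells by 2.76 ± 0.42 (edgeR adjusted p = 2.28e-08), also without any 1 library. They were higher than female VAT Tregs by 1.35 ± 0.33 (edgeR adjusted p = 0.00428), but not without male VAT Treg library 1 (0.212) or female library 1 or 2 (0.0822 or 0.205), or by DESeq2 (0.0761).

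The Pdcd1 region of highest count, from 94033225 to 94037754, begins 0.551 kb past the gene and is also listed for Neu4, a sialidase gene. It had 108 and 83.7 CPM in male VAT Tregs and 58.9 and 58.6 CPM in female VAT Tregs. Values were 57 and 79.8 CPM in VAT CD4 cells and 61 and 66.8 CPM in spleen Tregs. Both male VAT Treg libraries lay above the rest. The log2 fold change was 0.71 ± 0.17 (edgeR adjusted p = 0.00372) against female VAT Tregs and 0.59 ± 0.17 (edgeR adjusted p = 0.0151) against spleen. The first did not pass without male VAT Treg library 1 (0.0915) or female library 1 or 2 (0.144 or 0.137), or with short-region scaling (0.077), nor the second without male VAT Treg library 1 (0.201) or spleen library 1 or 2 (0.245 or 0.0942), or with short-region scaling (0.17). The wide region around the promoter, from 94049700 to 94055429, was not called in any comparison. Its values were 28.2 and 25.1 CPM in male VAT Tregs and 25.3 and 26.4 CPM in female VAT Tregs. There were 22.7 and 28.6 CPM in VAT CD4 cells and 32.6 and 27.5 CPM in spleen Tregs. The male VAT Treg values lay within the range of the VAT CD4 values.

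One Pdcd1 region, 37.9 kb upstream from 94090486 to 94093469, went the other way, with 12.4 and 9.17 CPM in male VAT Tregs and 18.7 and 27.7 CPM in VAT CD4 cells. The log2 fold change was -1.10 ± 0.22 (edgeR adjusted p = 6.86e-05), and it did not pass without VAT CD4 library 2 (0.0865). A wide region inside the gene was higher than in spleen (0.71 ± 0.22) and in VAT CD4 cells (1.27 ± 0.25). Its first call did not pass without male VAT Treg library 1 (0.129) or spleen library 1 or 2 (0.0964 or 0.279), or by DESeq2 (0.204), with short-region scaling (0.221) or with library size alone (0.0623), and its second without VAT CD4 library 1 (0.0729). The second log2 fold change was 2.01 without VAT CD4 library 2. A region of 125 bp, 24.3 kb upstream, was higher than in spleen by 1.88 ± 0.63 (edgeR adjusted p = 0.047). It did not pass in any of the 8 fits without 1 library (edgeR adjusted p of 0.0585 to 0.223), nor by DESeq2 (0.166), with short-region scaling (0.0828), with library size alone (0.0675) or with no low-count filter (0.0617).

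**Figure D2:**
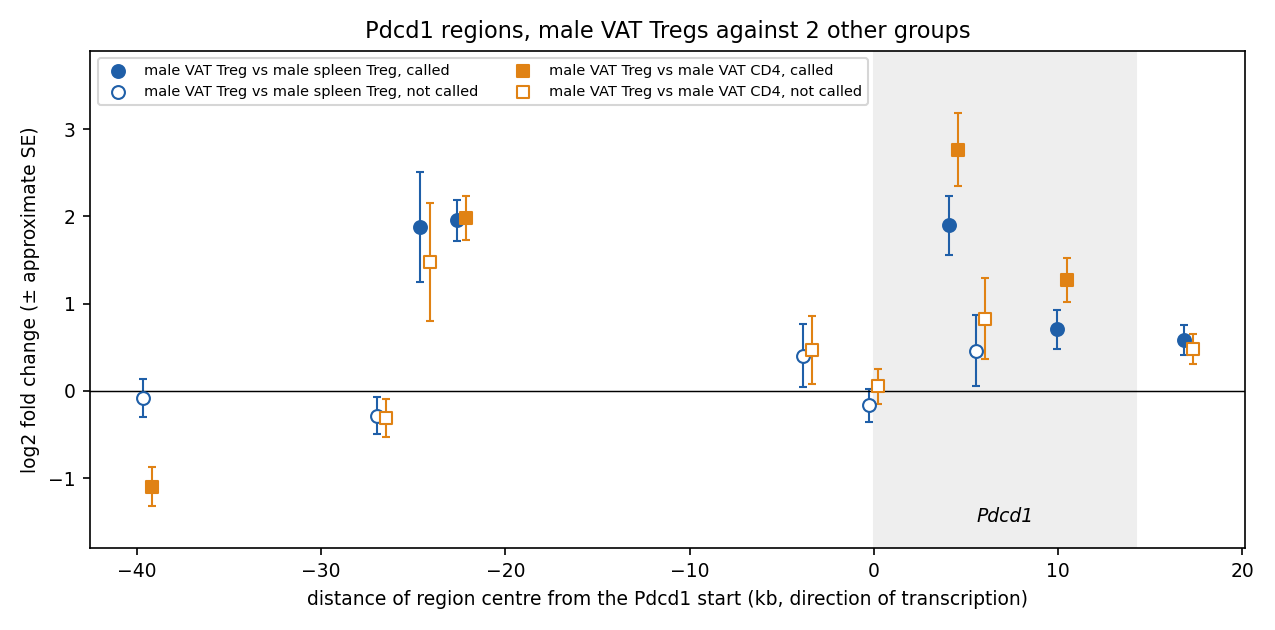
Log2 fold change (y axis, bars are the approximate SE) of the 10 Pdcd1 regions by the distance of their centre from the gene start in kb (x axis), for male VAT Tregs against spleen Tregs (circles) and against VAT CD4 cells (squares); filled symbols were called and the grey band is the gene body. The region 22.4 kb upstream and a short one inside the gene are high in both comparisons, while the region at the gene start lies near 0.

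Havcr2, on chromosome 11 from 46454931 to 46481255, had 5 regions. The short one at its promoter, from 46454750 to 46455021, whose window is printed above, was higher in male VAT Tregs than in each other group. It held 6.91 and 3.52 CPM in male VAT Tregs and 1.99 and 1.64 CPM in female VAT Tregs. The VAT CD4 libraries had 1.16 and 2.31 CPM and the spleen Treg libraries 1.94 and 1.85 CPM. Both male libraries lay above the other 6 but apart from each other, at 5.21 ± 2.40 CPM (mean and SD, n = 2). Log2 fold changes were 1.49 ± 0.41 (edgeR adjusted p = 0.0086) against spleen, 1.54 ± 0.42 (edgeR adjusted p = 0.016) against female VAT Tregs and 1.57 ± 0.45 (edgeR adjusted p = 0.0128) against VAT CD4 cells. The first did not pass without male VAT Treg library 1 (0.384) or spleen library 1 or 2 (0.0573 or 0.116), or by DESeq2 (0.0987). The second did not pass without male VAT Treg library 1 (0.46) or female library 1 or 2 (0.172 or 0.287), or by DESeq2 (0.16) or with short-region scaling (0.058), nor the third without male VAT Treg library 1 (0.467) or VAT CD4 library 1 (0.249), or by DESeq2 (0.0944) or with short-region scaling (0.0607). Without male VAT Treg library 1 the log2 fold changes were 0.90, 0.94 and 0.98, and the third was 2.19 without VAT CD4 library 2. Female VAT Tregs and spleen Tregs overlapped here. The other 4 Havcr2 regions had no call in any comparison.

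Tigit, on chromosome 16 from 43626137 to 43665125, had 9 regions. The wide region over its promoter runs from 43660868 to 43667649. It held 85.6 and 62.4 CPM in male VAT Tregs and 55.9 and 66 CPM in female VAT Tregs. VAT CD4 cells had 46 and 71 CPM and spleen Tregs 49.9 and 52.1 CPM. The male VAT Treg values lay above both spleen values and overlapped those of the other groups. Against spleen the log2 fold change was 0.54 ± 0.17 (edgeR adjusted p = 0.0352), and it did not pass without male VAT Treg library 1 (0.39), female library 1 or 2 (0.0603 or 0.0644) or spleen library 1 or 2 (0.273 or 0.174), or by DESeq2 (0.144), with short-region scaling (0.258) or with library size alone (0.0782). A short region inside the gene, from 43659025 to 43659326, was higher than in VAT CD4 cells. It had 9.63 and 5.33 CPM in male VAT Tregs and 5.39 and 5.4 CPM in female VAT Tregs. In VAT CD4 cells the values were 2.89 and 3.46 CPM, and in spleen Tregs 4.97 and 5.49 CPM. All 6 Treg libraries lay above both VAT CD4 libraries, and the male VAT Treg values overlapped those of the other Treg groups. The difference of male VAT Tregs from VAT CD4 cells was 1.25 ± 0.34 (edgeR adjusted p = 0.00623), which did not pass without male VAT Treg library 1 (0.397) or VAT CD4 library 1 (0.0898), or by DESeq2 (0.0633) or with short-region scaling (0.0752). A wide region 30.8 kb upstream was higher as well, with 62.3 and 45.1 CPM in male VAT Tregs and 31.4 and 39.8 CPM in VAT CD4 cells. That difference of 0.59 ± 0.18 (edgeR adjusted p = 0.0232) did not pass without male VAT Treg library 1 (0.428) or VAT CD4 library 1 (0.388), or by DESeq2 (0.0634) or with short-region scaling (0.229).

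Lag3, on chromosome 6 from 124904359 to 124912434, had 6 regions, all listed for neighbouring genes too, so that none can be credited to Lag3 alone. The region that overlaps the Lag3 body, from 124907897 to 124908066, is also listed for Cd4. It held 3.23 and 2.99 CPM in male VAT Tregs and 3.19 and 2.23 CPM in female VAT Tregs. Values were 1.35 and 1.59 CPM in VAT CD4 cells and 2.79 and 1.97 CPM in spleen Tregs. The Treg libraries lay above both VAT CD4 libraries, but no comparison called it. The region of highest count, from 124928962 to 124932925, is also listed for Mlf2 and Ptms, and was not called. It had 30.9 and 21.9 CPM in male VAT Tregs and 31 and 38.6 CPM in female VAT Tregs. There were 26.8 and 29 CPM in VAT CD4 cells and 29.1 and 27.5 CPM in spleen Tregs. Both female libraries lay above the other 6, by little. In the 3 comparisons among Tregs, edgeR and DESeq2 called 0 of the 6. Of all regions edgeR called 0.197% to 4.64% in a given direction there. At an unadjusted p below 0.05 edgeR had 0 higher and 1 lower in males against females and 0 in the other comparisons among Tregs. Against VAT CD4 cells, a region of 77 bp, 3.72 kb from the gene, was lower, with a log2 fold change of -2.80 ± 0.84 (edgeR adjusted p = 0.0178). It rested on 6 and 2 counts in male VAT Tregs and 7 and 21 counts in VAT CD4 cells. Its call did not pass without male VAT Treg library 1 or 2 (0.153 or 0.165), female library 2 (0.0524) or VAT CD4 library 1 or 2 (0.0649 or 0.477), or by DESeq2 (0.064), and the log2 fold change without VAT CD4 library 2 was -2.08.

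**Figure D3:**
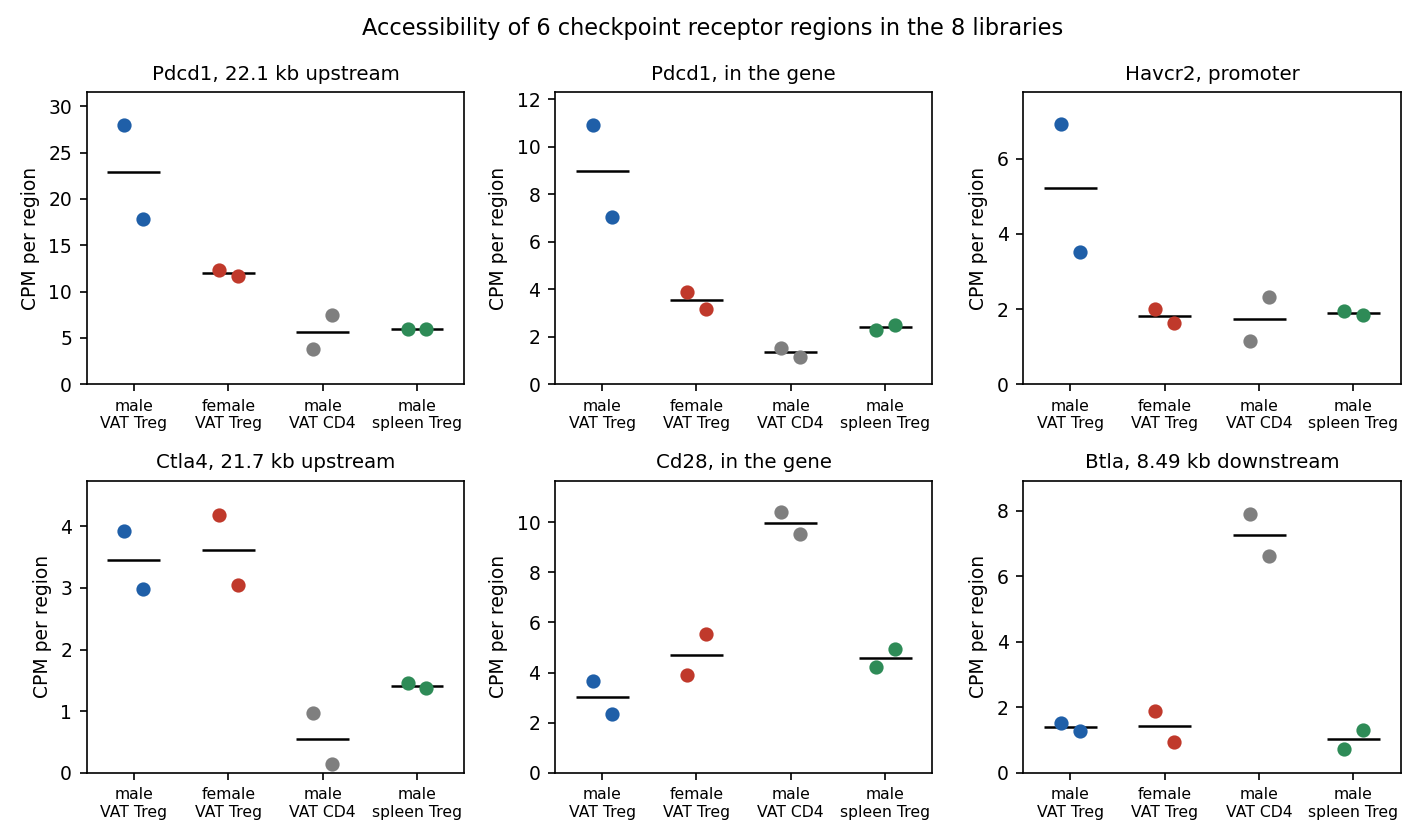
CPM (y axis, from 0) of 6 receptor regions in each of the 8 libraries; points are libraries and lines are group means. Both Pdcd1 regions and the Havcr2 promoter are highest in male VAT Tregs, the Ctla4 region is lowest in VAT CD4 cells, and the Cd28 and Btla regions are highest in VAT CD4 cells.

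Cd28, Ctla4 and Icos lie side by side on chromosome 1. Ctla4, from 60909025 to 60915832, had 13 regions, and the most regions of the 10 genes that were higher in male VAT Tregs than in VAT CD4 cells. A wide region, from 60908788 to 60917934, spans the whole gene and most of its promoter window. It held 71.7 and 58.1 CPM in male VAT Tregs and 66.8 and 77.6 CPM in female VAT Tregs. The VAT CD4 libraries had 38.3 and 45.3 CPM and the spleen Treg libraries 62 and 61.1 CPM. All 6 Treg libraries lay above both VAT CD4 libraries, and male VAT Tregs overlapped the other Treg groups. Their difference from VAT CD4 cells was 0.63 ± 0.18 (edgeR adjusted p = 0.00998), which did not pass without male VAT Treg library 1 (0.153) or VAT CD4 library 1 (0.216), or with short-region scaling (0.168). The region with the smallest adjusted p lies 21.7 kb upstream, from 60887096 to 60887293, and overlaps the bodies of Gm38137 and Gm39650. It had 3.93 and 2.99 CPM in male VAT Tregs and 4.19 and 3.05 CPM in female VAT Tregs. VAT CD4 cells had 0.963 and 0.144 CPM and spleen Tregs 1.45 and 1.37 CPM. All 4 VAT Treg libraries lay above the other 4. The difference from VAT CD4 cells was 2.77 ± 0.63 (edgeR adjusted p = 0.000539), on 62 and 28 counts in male VAT Tregs and 5 and 1 counts in VAT CD4 cells. It did not pass without VAT CD4 library 2 (0.131), and was 4.49 without VAT CD4 library 1 and 1.85 without VAT CD4 library 2. The differences from spleen, 1.31 ± 0.46 (edgeR adjusted p = 0.0626) for males and 1.36 ± 0.47 (edgeR adjusted p = 0.153) for females, did not pass.

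Other Ctla4 regions higher than in VAT CD4 cells lay 33.4 kb upstream (overlapping Gm38137), 4.26 kb upstream, and 21.2 kb downstream of the gene (overlapping Gm34649). Their log2 fold changes were 1.54 ± 0.40 (edgeR adjusted p = 0.00393), 2.86 ± 0.81 (edgeR adjusted p = 0.00986) and 1.31 ± 0.39 (edgeR adjusted p = 0.0164). The first did not pass without male VAT Treg library 1 (0.162) or VAT CD4 library 2 (0.114). The second did not pass without male VAT Treg library 1 (0.123) or VAT CD4 library 2 (0.263), or by DESeq2 (0.0568), nor the third without male VAT Treg library 1 (0.544) or VAT CD4 library 1 (0.511), or by DESeq2 (0.147) or with short-region scaling (0.126). Without VAT CD4 library 1 or 2 the second log2 fold change was 4.02 or 2.10 and the third 0.71 or 2.74. The third was 0.70 without male VAT Treg library 1. A single Ctla4 region was lower, 26 kb upstream (overlapping Gm38137), with 1.77 and 1.71 CPM in male VAT Tregs and 4.62 and 4.9 CPM in VAT CD4 cells. That difference, -1.45 ± 0.45 (edgeR adjusted p = 0.0249), did not pass without male VAT Treg library 1 or 2 (0.124 or 0.0643) or VAT CD4 library 1 or 2 (0.102 or 0.159), or by DESeq2 (0.0812) or with library size alone (0.0588). Among the Treg groups edgeR and DESeq2 called 0 of the 13 Ctla4 regions. Of all regions edgeR called only 0.197% to 4.64% in a given direction there, so a 0 among 13 does not set Ctla4 apart. At an unadjusted p below 0.05 edgeR had 2 higher and 1 lower (male VAT against spleen), 1 and 0 (female VAT against spleen) and 1 and 0 (between the sexes).

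Cd28, from 60746388 to 60773359, had 6 regions, of which 3 were lower and 1 higher in male VAT Tregs than in VAT CD4 cells. The clearest lies inside the gene, from 60758287 to 60758541. It held 3.67 and 2.35 CPM in male VAT Tregs and 3.89 and 5.52 CPM in female VAT Tregs. In VAT CD4 cells the values were 10.4 and 9.52 CPM, and in spleen Tregs 4.24 and 4.96 CPM. Both VAT CD4 libraries lay above all 6 Treg libraries. The log2 fold change of -1.68 ± 0.32 (edgeR adjusted p = 2.27e-05) passed without any 1 library too. Wide regions at the start of Cd28 and 2.53 kb past its end had log2 fold changes of -0.72 ± 0.21 (edgeR adjusted p = 0.0136) and -0.73 ± 0.23 (edgeR adjusted p = 0.0272). The one at the start did not pass without male VAT Treg library 2 (0.053) or VAT CD4 library 2 (0.326), or by DESeq2 (0.0611) or with library size alone (0.0767). The one past the end did not pass without male VAT Treg library 1 or 2 (0.101 or 0.0701) or VAT CD4 library 2 (0.306), or by DESeq2 (0.0887) or with library size alone (0.0984).

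A short region inside Cd28, from 60750444 to 60750777, was instead higher in male VAT Tregs than in each other group. It had 7.92 and 3.84 CPM in male VAT Tregs and 1.99 and 2.46 CPM in female VAT Tregs. Values were 1.16 and 2.45 CPM in VAT CD4 cells and 2.55 and 2.81 CPM in spleen Tregs. Both male VAT Treg libraries lay above the other 6. Log2 fold changes were 1.15 ± 0.37 (edgeR adjusted p = 0.0363) against spleen, 1.43 ± 0.39 (edgeR adjusted p = 0.0157) against female VAT Tregs and 1.68 ± 0.43 (edgeR adjusted p = 0.00344) against VAT CD4 cells. Against spleen it did not pass without male VAT Treg library 1 (0.61), female library 2 (0.0512) or spleen library 1 or 2 (0.185 or 0.155), or by DESeq2 (0.224), with short-region scaling (0.106) or with library size alone (0.0678). Between the sexes it did not pass without male VAT Treg library 1 (0.504) or female library 1 or 2 (0.318 or 0.137), or by DESeq2 (0.176) or with short-region scaling (0.0664), and against VAT CD4 cells without male VAT Treg library 1 (0.354) or VAT CD4 library 1 (0.143). The 3 log2 fold changes were 0.51, 0.79 and 1.04 without male VAT Treg library 1, and the last was 2.37 without VAT CD4 library 2.

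Icos, from 60960773 to 61000322, had 17 regions, of which 5 overlapped the gene. The region from 61045339 to 61047140, 45 kb from the gene, was higher in VAT Tregs of both sexes than in spleen Tregs. It held 16.5 and 13.9 CPM in male VAT Tregs and 14.6 and 14.2 CPM in female VAT Tregs. There were 8.67 and 12.5 CPM in VAT CD4 cells and 8 and 8.18 CPM in spleen Tregs. All 4 VAT Treg libraries lay above the other 4. Against the shared spleen libraries the log2 fold change was 0.91 ± 0.23 (edgeR adjusted p = 0.0027) in males and 0.83 ± 0.23 (edgeR adjusted p = 0.0328) in females. The male call did not pass without male VAT Treg library 1 (0.0733) or spleen library 2 (0.0641), or with short-region scaling (0.0627). The female call did not pass without female library 1 or 2 (0.394 or 0.238) or spleen library 1 or 2 (0.258 or 0.243), or by DESeq2 (0.174), with short-region scaling (0.235) or with library size alone (0.0824). Regions 54.1 and 102.2 kb from the gene were higher in male VAT Tregs than in spleen Tregs by 1.30 ± 0.38 (edgeR adjusted p = 0.0166) and 1.38 ± 0.46 (edgeR adjusted p = 0.0435). The nearer one did not pass without male VAT Treg library 1 (0.156) or spleen library 2 (0.359), or by DESeq2 (0.0956) or with short-region scaling (0.0542). The farther one did not pass without male VAT Treg library 1 (0.702), female library 1 or 2 (0.056 or 0.0676) or spleen library 1 or 2 (0.121 or 0.261), or by DESeq2 (0.234), with short-region scaling (0.109) or with library size alone (0.0757), and its log2 fold change without male VAT Treg library 1 was 0.52. Against VAT CD4 cells 1 region of 77 bp inside the gene was lower, with 15 and 0 counts in male VAT Tregs and 6 and 25 counts in VAT CD4 cells. Its log2 fold change of -2.13 ± 0.68 (edgeR adjusted p = 0.0293) did not pass without male VAT Treg library 2 (0.306) or VAT CD4 library 2 (0.705), or by DESeq2 (0.498) or with library size alone (0.0781). It was -7.52 or -1.36 without male VAT Treg library 1 or 2 and -1.07 without VAT CD4 library 2, so its size rests on single libraries. The region of highest mean CPM, inside the gene from 60975804 to 60979905, was not called. It had 14.1 and 11.9 CPM in male VAT Tregs and 17.4 and 21.1 CPM in female VAT Tregs. The VAT CD4 libraries had 13.1 and 17.6 CPM and the spleen Treg libraries 16.1 and 18 CPM. Female VAT Tregs and spleen Tregs lay above male VAT Tregs, and VAT CD4 cells overlapped all of them.

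**Figure D4:**
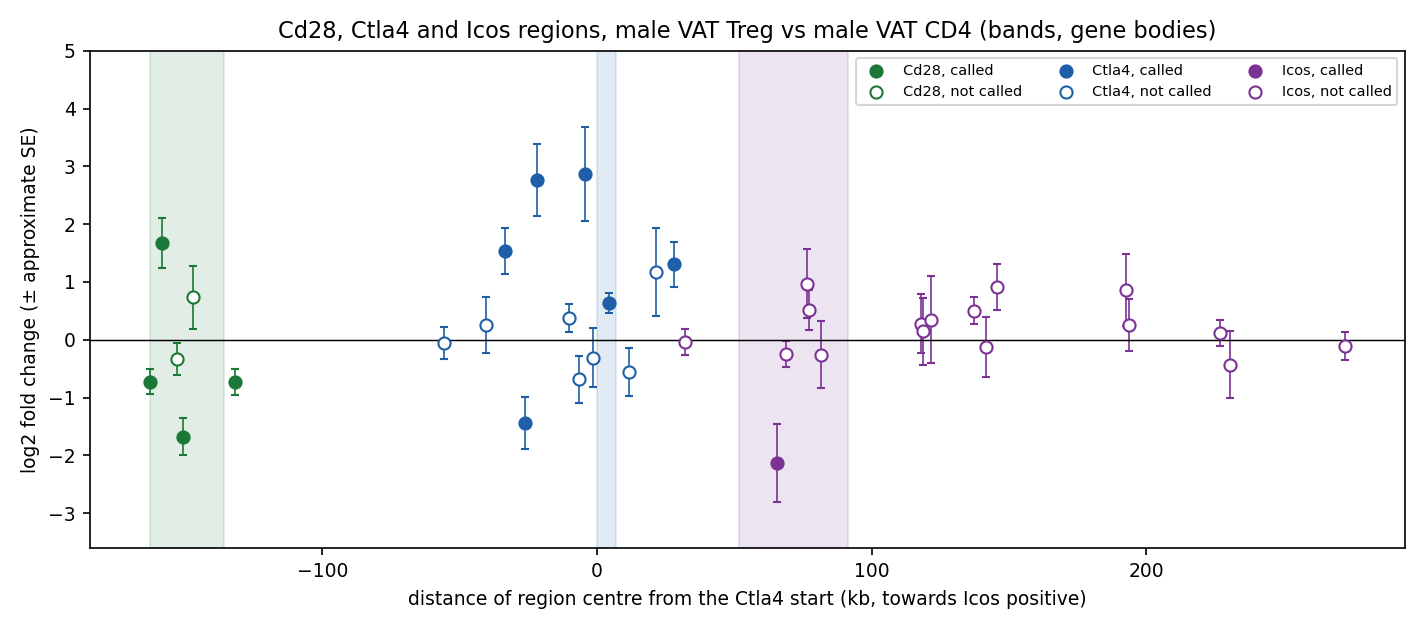
Log2 fold change of male VAT Tregs against VAT CD4 cells (y axis, bars are the approximate SE) for the regions of Cd28, Ctla4 and Icos by the distance of their centre from the Ctla4 start in kb (x axis); filled points were called and bands are gene bodies. Of the called Ctla4 regions 5 lie above 0 and 1 below, and of those of Cd28 1 lies above and 3 below.

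Btla, on chromosome 16 from 45223705 to 45252895, had 3 regions. The short one 8.49 kb downstream, from 45261386 to 45261592, was lower in male VAT Tregs than in VAT CD4 cells. It held 1.52 and 1.28 CPM in male VAT Tregs and 1.9 and 0.939 CPM in female VAT Tregs. VAT CD4 cells had 7.9 and 6.63 CPM and spleen Tregs 0.727 and 1.31 CPM. Both VAT CD4 libraries lay above all 6 Treg libraries. The log2 fold change of -2.34 ± 0.46 (edgeR adjusted p = 4.02e-05) passed without any 1 library too. The region over the Btla promoter, from 45222096 to 45226089, was not called. It had 15.9 and 16 CPM in male VAT Tregs and 15 and 16.1 CPM in female VAT Tregs. In VAT CD4 cells the values were 20.2 and 26.1 CPM, and in spleen Tregs 18.2 and 16.8 CPM. The VAT CD4 libraries again lay above the rest, with a log2 fold change of -0.55 ± 0.21 (edgeR adjusted p = 0.0959). Among the Treg groups edgeR and DESeq2 called 0 of the 3 Btla regions, and edgeR had 0 at an unadjusted p below 0.05. Of all regions edgeR called 0.197% to 4.64% in a given direction there.

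Cd200, on chromosome 16 from 45382111 to 45409060, had 3 regions and 0 calls by edgeR and DESeq2 in the 4 comparisons. Of all regions edgeR called 0.197% to 5.18% in a given direction. At an unadjusted p below 0.05 edgeR had 1 higher against VAT CD4 cells and 0 elsewhere. Its promoter region, from 45407302 to 45410711, had the highest count. It held 11.7 and 15.1 CPM in male VAT Tregs and 9.97 and 12.2 CPM in female VAT Tregs. Values were 15.2 and 14.7 CPM in VAT CD4 cells and 13.8 and 14.2 CPM in spleen Tregs. Male VAT Tregs overlapped every other group, and female VAT Tregs lay below VAT CD4 cells and spleen Tregs.

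Cd226, on chromosome 18 from 89176954 to 89272232, had 6 regions, of which 3 were called in a comparison, 1 higher and 2 lower in male VAT Tregs. Inside the gene, the region from 89245696 to 89245848 was lower in male VAT Tregs than in VAT CD4 cells. It held 1.2 and 1.81 CPM in male VAT Tregs and 2.19 and 1.53 CPM in female VAT Tregs. There were 8.09 and 4.33 CPM in VAT CD4 cells and 2.18 and 1.43 CPM in spleen Tregs. Both VAT CD4 libraries lay above all 6 Treg libraries. Its log2 fold change of -2.05 ± 0.46 (edgeR adjusted p = 0.0005) did not pass without VAT CD4 library 1 (0.139). Also inside the gene, the region from 89233583 to 89233854 was higher in male VAT Tregs than in each other group. It had 8.62 and 6.08 CPM in male VAT Tregs and 1.99 and 4.22 CPM in female VAT Tregs. The VAT CD4 libraries had 2.89 and 1.3 CPM and the spleen Treg libraries 3.76 and 3.76 CPM. Both male VAT Treg libraries lay above the other 6. Log2 fold changes were 0.98 ± 0.33 (edgeR adjusted p = 0.0465) against spleen, 1.27 ± 0.35 (edgeR adjusted p = 0.0141) against female VAT Tregs and 1.88 ± 0.40 (edgeR adjusted p = 0.000174) against VAT CD4 cells. Against spleen it did not pass without male VAT Treg library 1 (0.355), female library 1 or 2 (0.0574 or 0.075) or spleen library 1 or 2 (0.197 or 0.223), or by DESeq2 (0.271), with short-region scaling (0.164) or with library size alone (0.0836). Between the sexes it did not pass without male VAT Treg library 1 (0.223) or female library 1 (0.585), or by DESeq2 (0.186) or with short-region scaling (0.0906), and against VAT CD4 cells without VAT CD4 library 2 (0.0733). The log2 fold change between the sexes was 1.89 without female library 2, and that against VAT CD4 cells 2.51 without VAT CD4 library 1. A wide region 16.3 kb from the gene was lower than in VAT CD4 cells, with a log2 fold change of -0.67 ± 0.23 (edgeR adjusted p = 0.0463). It did not pass in any of the 8 fits without 1 library (edgeR adjusted p of 0.0575 to 0.245), nor by DESeq2 (0.125) or with library size alone (0.146). The region of highest count, inside the gene from 89204679 to 89208316, was not called. It held 18.2 and 15.9 CPM in male VAT Tregs and 12.4 and 16.4 CPM in female VAT Tregs. VAT CD4 cells had 24.3 and 20.6 CPM and spleen Tregs 17.8 and 17.3 CPM. The VAT CD4 libraries lay above the rest.

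Levels can be set between genes only per length and within a width class. Regions under 1000 bp had a median density of 17.0 CPM per kb and an upper quartile of 20.7 CPM per kb, and wider ones 4.04 and 5.12 CPM per kb. Among wide regions over promoters, the mean density over all 8 libraries was 9.01 CPM per kb at Tigit and 6.57 CPM per kb at Ctla4, both above that quartile, and 4.72 CPM per kb at Pdcd1, 4.51 CPM per kb at Btla and 3.92 CPM per kb at Cd200. The order differed between groups: density at Ctla4 was 7.09 CPM per kb in male VAT Tregs and 7.89 CPM per kb in female VAT Tregs, against 4.57 CPM per kb in VAT CD4 cells and 6.73 CPM per kb in spleen Tregs. In VAT CD4 cells it was below that of Btla, at 5.8 CPM per kb. Density at the upstream Pdcd1 region was 40 CPM per kb in male VAT Tregs, 20.9 in female VAT Tregs, 9.91 in VAT CD4 cells and 10.4 in spleen Tregs. The short regions of Cd28, Btla and Cd226 lower in male VAT Tregs had 11.9, 6.8 and 9.92 CPM per kb there, and 39.2, 35.3 and 40.8 CPM per kb in VAT CD4 cells.

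Partners of the receptors were followed as 3 lists. Of 15 genes of ligands and counter-receptors, 13 had regions, 50 in all. Against VAT CD4 cells 4 of the 50 were higher and 2 lower in male VAT Tregs, with a median log2 fold change of 0.10 beside -0.02 over all regions. These are 8.00% and 4.00% of the list, beside 5.18% and 2.51% of all regions. DESeq2 called 3 higher and 1 lower there. Cd80, a ligand of CD28 and CTLA-4, had 6.65 and 4.91 CPM in male VAT Tregs and 0.578 and 1.73 CPM in VAT CD4 cells (2.25 ± 0.45 on the log2 scale), at a region also listed for Adprh. Tnfrsf14, which encodes the BTLA ligand HVEM, was higher at a region also listed for Hes5 and Pank4 (1.05 ± 0.21). Both passed without any 1 library. Cd200r1, the CD200 receptor (2.77 ± 0.68), and Cd86, another CD28 ligand (1.05 ± 0.30), did not always pass, with edgeR adjusted p of up to 0.115 and 0.248. Icosl, which encodes the ICOS ligand, was the 1 gene higher against spleen (1.67 ± 0.43) and against female VAT Tregs (1.68 ± 0.45). Without male VAT Treg library 1 the edgeR adjusted p was 0.413 and 0.519. Another Tnfrsf14 region was lower than in spleen (-0.62 ± 0.19), but not without spleen library 1 (edgeR adjusted p = 0.277). Against spleen 1 region was higher and 1 lower (2.00% and 2.00%, beside 4.64% and 2.09% of all regions), and between the sexes 1 was higher (2.00%, beside 2.04% of all). DESeq2 called 0 of the 50 in either comparison, so these Icosl and Tnfrsf14 calls did not pass by it. Medians were -0.03 against spleen and 0.03 between the sexes, with 0 lower between the sexes by edgeR and DESeq2 and 1 at an unadjusted p below 0.05. For female VAT against spleen edgeR and DESeq2 called 0 of 50, and edgeR had 1 higher and 4 lower with an unadjusted p below 0.05.

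Of 15 genes of other inhibitory or paired receptors, 13 had regions, 38 in all. In male VAT Tregs 6 were higher and 2 lower than in spleen Tregs, 4 and 1 than in female VAT Tregs, and 5 and 2 than in VAT CD4 cells, with medians of 0.22, 0.17 and 0.16. Shares higher and lower were 15.8% and 5.26% against spleen (4.64% and 2.09% of all regions), 10.5% and 2.63% against female VAT Tregs (2.04% and 1.21% of all) and 13.2% and 5.26% against VAT CD4 cells (5.18% and 2.51% of all). Klrg1, which marks differentiated T cells and is inhibitory, made up all higher calls against spleen and against female VAT Tregs. Its leading region there, also listed for Gm6637, had 16.1 and 7.25 CPM in male VAT Tregs, 0.997 and 2.11 CPM in female VAT Tregs and 1.33 and 1.13 CPM in spleen Tregs. Against VAT CD4 cells another Klrg1 region (3.31 ± 0.36) and Cd48, a ligand of the receptor CD244 (2.09 ± 0.45), were higher. These Klrg1 and Cd48 calls passed without any 1 library. Cd2, an adhesion receptor, was lower at a different region in each comparison: -1.97 ± 0.60 against spleen, -0.69 ± 0.19 against female VAT Tregs and -1.66 ± 0.39 against VAT CD4 cells. Lair1, a collagen receptor, was lower than in spleen (-0.73 ± 0.23), and Slamf6 lower than in VAT CD4 cells (-1.31 ± 0.44). Without 1 library these 5 reached edgeR adjusted p of 0.191, 0.419, 0.0511, 0.414 and 0.665. DESeq2 called 4 of the 38 higher and 0 lower against spleen, 2 and 1 against female VAT Tregs, and 4 and 1 against VAT CD4 cells. The Cd2 and Lair1 calls against spleen thus did not pass by it. For female VAT against spleen edgeR and DESeq2 called 0 of 38, and edgeR had 0 higher and 1 lower with an unadjusted p below 0.05.

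The 18 genes of proximal signalling had 107 regions. In male VAT Tregs 3 were higher and 15 lower than in VAT CD4 cells, 5 and 7 than in spleen Tregs, and 1 and 3 than in female VAT Tregs. In female VAT Tregs 2 were higher and 1 lower than in spleen Tregs. Shares higher and lower, in that order, were 2.80% and 14% (5.18% and 2.51% of all regions), 4.67% and 6.54% (4.64% and 2.09% of all), 0.935% and 2.80% (2.04% and 1.21% of all) and 1.87% and 0.935% (1.18% and 0.197% of all). Medians were -0.10, -0.10, -0.07 and -0.09. DESeq2 called, in the same order, 2 higher and 6 lower, 3 and 2, 0 and 0, and 1 and 0. The Pik3r1 call and the calls between the sexes named below thus did not pass by DESeq2. Cblb, a ubiquitin ligase that restrains T cells stimulated without CD28, had a region on chromosome 16 from 52142896 to 52143461 with 3.67 and 2.56 CPM in male VAT Tregs and 4.69 and 4.58 CPM in female VAT Tregs. There were 19.8 and 19 CPM in VAT CD4 cells and 0.849 and 0.418 CPM in spleen Tregs. VAT Tregs of both sexes lay between spleen Tregs and VAT CD4 cells. The log2 fold changes were -2.60 ± 0.30 for male VAT Tregs against VAT CD4 cells, 2.46 ± 0.43 for male VAT against spleen and 3.00 ± 0.42 for female VAT against spleen. Prkcq, a kinase on the path from CD28 to NF-kB, was lower than in VAT CD4 cells (-1.46 ± 0.32). These Cblb and Prkcq calls passed without any 1 library. Against spleen, another region of Prkcq was lower (-0.88 ± 0.21), but not without spleen library 2 (edgeR adjusted p = 0.0922). Trat1 was lower than in VAT CD4 cells (-1.32 ± 0.39). In female VAT against spleen Pik3r1 was lower (-0.77 ± 0.21) and Grap2 higher (1.78 ± 0.48). Between the sexes Bag6 (-0.76 ± 0.22, a region listed for 5 genes) and the X-linked Sh2d1a (-0.71 ± 0.22) were lower, and another Cblb region higher (0.59 ± 0.18). Without 1 library these 6 reached edgeR adjusted p of 0.298, 0.38, 0.33, 0.391, 0.502 and 0.422.

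Likeness was measured by Pearson's r of log2 CPM over the 8 libraries, among 38025 regions of at least 2 mean CPM, as a description. The 3 genes with most calls were set beside the most alike regions of other genes, predicted genes left out. For the upstream Pdcd1 region they were listed for Il4ra (r = 0.986), Dtwd2 (0.986) and Park7 with Tnfrsf9 (0.985). That last region held 65.7 and 44.6 CPM in male VAT Tregs and 38.1 and 39.5 CPM in female VAT Tregs. There were 19.1 and 27.5 CPM in VAT CD4 cells and 20.6 and 24.8 CPM in spleen Tregs. For the Ctla4 region 21.7 kb upstream they were Pnkd (0.969), Adam17 (0.969) and Dgat2 (0.967). For the Cd28 region lower in male VAT Tregs they were Luc7l3 (0.982), Slc19a3 (0.982) and Snap47 (0.981). The 8 points fall into 4 groups and share their libraries.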

How the data were processed

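ATAC-seq libraries of 4 groups of sorted T cells were compared, 2 per group. The authors deposited raw read counts for each region, not normalised, and per-library log2 CPM files, which were not used here. Per the submitters' processing notes the build is mm10 (GRCm38), and Subread 1.6.2, HOMER 4.9, featureCounts and limma are named with no role. How regions were called, and whether starts count from 0 or 1, is not given in the sources used here; coordinates are printed as in the table.

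The 62205 entries hold 46624 distinct regions. Kept were the 46512 on chromosomes 1 to 19, X and Y that carry a gene (111 carry none), and filterByExpr kept 45709. A single quasi-likelihood model in edgeR 4.0.16 (R 4.3.3) took all 8 libraries, with TMM factors and 1 coefficient for each group, leaving 4 residual degrees of freedom. The fit was also run on counts simulated with a common dispersion and no difference in composition between the libraries of a group. That run checked the code and does not bear on the calls here. P-values were adjusted by Benjamini-Hochberg over all regions. The approximate SE is the absolute log2 fold change over the root of F. CPM use TMM-scaled totals. Gene bodies are from RefSeq (GRCm38.p6). Reads carry no molecular identifiers, and no batch labels are given.

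Members and lists were chosen with earlier results of these data known, so no p adjusted over a list and no set test is given. The text names, per gene, the region of highest mean CPM and the called regions, and per list and comparison up to 4 called genes by smallest adjusted p; some of these are not reported here. A few other regions, such as promoters, were named after their values were seen. Alternatives were other scalings, the DESeq2 1.42.0 Wald test, no low-count filter, a replicate block and leaving out each library, numbered by its replicate label.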

Additional observations from a re-analysis of the deposited data

How the results depend on the processing

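Over 15 alternatives, the 43 called results gave 645 values, of which 463 kept direction and call, 182 lost the call and 0 changed sign. Leaving out 1 library moved the counts of regions higher over 2 to 13 (male VAT against spleen), 0 to 2 (female VAT against spleen), 0 to 6 (male against female VAT) and 5 to 16 (male VAT Tregs against VAT CD4), and those lower over 0 to 1, 0 to 0, 0 to 1 and 3 to 9. Of the 43 calls, 15 held without male VAT Treg library 1 and 29 to 36 without any other 1. With TMM factors from regions under 1000 bp, 22 calls held, with 3 higher and 2 lower (male VAT against spleen), 0 higher (female VAT against spleen), 1 higher (between the sexes) and 8 higher (against VAT CD4). The DESeq2 Wald test gave 4, 0, 1 and 8 higher and, against VAT CD4, 4 lower. Over all 45709 regions it gave 1113, 247, 354 and 1252 higher and, against VAT CD4, 608 lower. Library size alone gave 6 higher in male and 1 in female VAT against spleen, and 5 lower against VAT CD4. The cause was not tested. DESeq2 size factors kept all 43 calls and no low-count filter 42.

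With the replicate block 35 calls held, with 7 higher in male and 1 in female VAT against spleen. Replicate numbers were not used as pairs: deviations of same-numbered libraries from their group means correlated at -0.15 to 0.07. With the VAT CD4 numbers crossed, chosen after seeing the data, there were 13 higher and 10 lower against VAT CD4. With 5722254 to 15798875 counts per library and 2 libraries a group, short regions rest on few counts, and a region not called is not shown to be equal.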
